A study of Mus musculus with 6 samples.

Results

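The simple keratins *Krt7*, *Krt8*, *Krt18* and *Krt19* and the epithelial junction genes *Cdh1*, *Epcam*, *Cldn3*, *Cldn4*, *Cldn6* and *Cldn7* were followed in mouse embryonic stem cells (mESC) with intact and with deleted *Tet* genes, named *Ctrl* and *Tet iTKO*. These 10 genes, out of 22380 gene identifiers listed for each line, were taken by name, and the set was chosen by the normalized counts of *Krt8* and *Krt18*, which were higher in *Tet iTKO* than in *Ctrl* mESC. Their difference between the groups is therefore given as a description, with a fold change and its standard error and with no test. All 10 had an identifier in the files.

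Bulk poly(A) RNA-Seq was performed on 6 mESC lines, 3 per group, each derived from a different embryo, to ask how gene expression changes soon after the TET enzymes are lost. The *Ctrl* lines were heterozygous (wt/ki) for CreERT2, driven by the human ubiquitin C promoter, and for Gt(ROSA)26Sor<tm1Ytchn>/J, an EGFP reporter that Cre switches on. The *Tet iTKO* lines carried the same alleles and were, in addition, fl/fl for *Tet1*, *Tet2* and *Tet3*. Both groups grew in 2i medium on embryonic fibroblast feeders, were given 1 µM 4-hydroxytamoxifen for 2.5 days and were cultured for 4 more days. They were sorted at day 6.5 as live, EGFP-positive and Thy1.2-negative cells, so *Ctrl* cells also went through Cre activation. The paper's reporting summary adds CD326-positive, and its RNA-Seq figure legend adds CD326-positive and SSEA1-positive, while its RNA extraction methods name neither. CD326 is the protein made from *Epcam*. Where that gate was used, *Epcam* was measured in cells gated on its own product. In bulk RNA, fewer cells of a type and less RNA per cell cannot be told apart.

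Keratins are intermediate filament proteins that assemble only as pairs of a type II partner, such as KRT8 or KRT7, with a type I partner, such as KRT18 or KRT19. KRT8 and KRT18 form the filaments of simple, one-layered epithelia and are among the first keratins made in the mouse embryo, in its outer trophectoderm layer. E-cadherin, encoded by *Cdh1*, holds epithelial and embryonic stem cells together at adherens junctions, EPCAM is a surface glycoprotein that stabilises claudins, and claudins form the strands of tight junctions that seal the space between cells. TET enzymes oxidise methylated cytosine at CpG dinucleotides, which is why the CpG content of the promoters is set out first.

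Promoter windows of 300 bases, from 250 bases before to 50 bases after the annotated start, were found in the RefSeq table of GRCm38.p6 for 8 of the 10 genes. *Krt19* and *Cdh1* had no entry. *Krt8* and *Krt18* are shown because they form 1 filament and were both higher in *Tet iTKO* mESC, *Cldn6* and *Cldn7* because they were the abundant claudins with the same direction, and *Cldn4* because it was the claudin that was not. Capitals mark CACCTG or its reverse complement CAGGTG, a form of E-box to which repressors of the Snail and Zeb families are known to bind.

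The windows lie at chr15:102004293-102004592 on the minus strand for *Krt8*, chr15:102027966-102028265 on the plus strand for *Krt18*, chr17:23679115-23679414 on the plus strand for *Cldn6*, chr11:69965171-69965470 on the plus strand for *Cldn7* and chr5:134946885-134947184 on the minus strand for *Cldn4*.
Krt8: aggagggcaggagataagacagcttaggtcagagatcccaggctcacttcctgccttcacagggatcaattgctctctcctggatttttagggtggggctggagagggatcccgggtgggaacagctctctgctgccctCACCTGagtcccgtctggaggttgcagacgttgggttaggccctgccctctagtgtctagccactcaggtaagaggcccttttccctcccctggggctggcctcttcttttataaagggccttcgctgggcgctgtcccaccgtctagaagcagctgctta
Krt18: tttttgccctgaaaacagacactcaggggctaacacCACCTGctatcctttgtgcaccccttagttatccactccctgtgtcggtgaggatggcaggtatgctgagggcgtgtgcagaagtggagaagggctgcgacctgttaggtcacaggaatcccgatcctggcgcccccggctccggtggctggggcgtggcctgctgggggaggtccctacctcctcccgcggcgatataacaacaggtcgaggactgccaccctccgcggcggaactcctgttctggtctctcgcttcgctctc
Cldn6: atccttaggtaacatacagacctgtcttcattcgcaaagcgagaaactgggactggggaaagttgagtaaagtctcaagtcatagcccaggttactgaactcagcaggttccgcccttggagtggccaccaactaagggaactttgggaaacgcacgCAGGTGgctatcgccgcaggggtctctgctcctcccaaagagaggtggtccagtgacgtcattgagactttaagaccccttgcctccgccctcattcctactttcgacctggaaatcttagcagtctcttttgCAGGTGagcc
Cldn7: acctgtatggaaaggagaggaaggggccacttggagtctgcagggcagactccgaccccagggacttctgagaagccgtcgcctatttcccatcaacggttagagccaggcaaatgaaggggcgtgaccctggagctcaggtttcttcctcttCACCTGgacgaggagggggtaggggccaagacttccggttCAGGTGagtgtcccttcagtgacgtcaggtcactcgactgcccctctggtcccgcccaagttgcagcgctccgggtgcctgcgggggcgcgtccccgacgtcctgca
Cldn4: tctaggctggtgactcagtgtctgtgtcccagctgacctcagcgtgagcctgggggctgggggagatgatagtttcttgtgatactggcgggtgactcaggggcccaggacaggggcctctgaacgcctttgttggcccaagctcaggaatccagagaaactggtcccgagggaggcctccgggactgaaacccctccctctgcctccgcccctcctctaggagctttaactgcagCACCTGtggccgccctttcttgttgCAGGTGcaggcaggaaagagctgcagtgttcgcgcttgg

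The 2 filament partners differed in CpG content, with 6 CpG dinucleotides in the *Krt8* window and 17 in the *Krt18* window. Across all 32851 promoter windows the median was 7 CpG, with quartiles of 3 and 20. *Krt8* thus lay just under the median and *Krt18* between the median and the upper quartile. *Krt7* had the most, with 21. *Epcam* had 11, *Cldn6* had 10, *Cldn3* and *Cldn4* had 9 each, and *Cldn7* had 7 and 17 at its pair of annotated starts. Methylation of these windows was not analysed here.

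**Figure D1:**
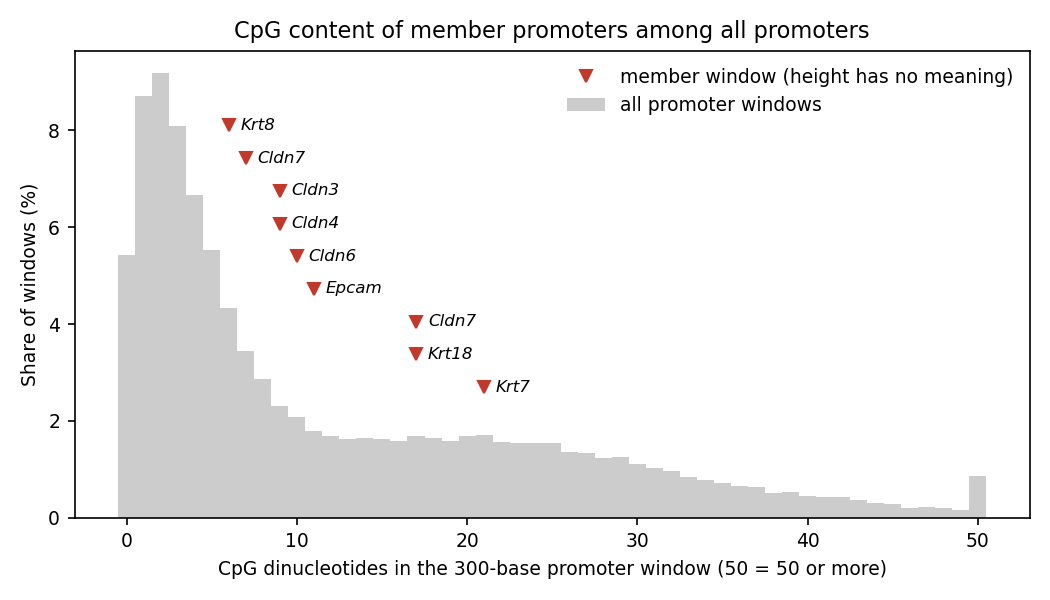
CpG dinucleotides per 300-base promoter window (horizontal axis) against the share of all 32851 windows in percent (grey bars), with the 9 windows of the keratin and junction genes as triangles whose height carries no value. The triangles run from 6 for *Krt8* to 21 for *Krt7*, and 1 of them, *Krt8*, lies below the median of 7.

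All 8 genes with a window held at least 1 E-box of this form on either strand, in 8 of their 9 windows, with 12 E-boxes in all. Of all promoter windows 20.2% held one. Counted from the start, the first base of the E-box was at -111 in *Krt8* and at -214 in *Krt18*. *Cldn7* had a pair at -97 and -57, both in its second window, *Cldn6* a pair at -93 and 41, and *Cldn4* a pair at -14 and 12, so *Cldn4* did not differ in holding this motif from the claudins that were higher in *Tet iTKO* mESC. The E-box was 1 of 7 motifs searched on both strands. GGGCGG, the GC box, was in the windows of 6 of the 8 genes, against 35.7% of all windows, and CCAAT was in 0 of the 8, against 37.4%. TATAAA was in *Krt8* only, where its matches on both strands overlap, against 13.6% of all windows. CATTCC, a TEAD motif, was found in *Cldn6* and in the first *Cldn7* window, against 14.7%, TGANTCA, an AP-1 motif, in *Cldn4*, against 7.81%, and AACCNGTT, a Grainyhead motif, in none of the 8, against 2.09%. A match of letters is a description of the sequence, and binding was not measured.

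Values below are normalized counts, that is read counts per gene scaled by the authors for the size of each library, and *Ctrl* or *Tet iTKO* lines are listed in the order of their numbers 1 to 3. Fold changes are on the scale of log2(normalized count + 1), a scale on which rare transcripts show less than their full change. They were fitted with limma, together with the 10524 genes that had a mean of at least 10 over the 6 lines. Of these genes, 3665 (34.8%) differed between the groups at an adjusted p under 0.05, 1731 (16.4%) higher in *Tet iTKO* and 1934 (18.4%) lower. The mean spans both groups, so a gene below 10 in 1 group can enter through the other alone. Among the genes named below, *Cldn3*, *Tns2*, *Cldn9*, *Evpl* and *Grhl1* entered in this way through *Tet iTKO*. Their calls as higher are not independent of this filter. Normalized counts summed to between 3964824 and 4219665 per line. Over the whole gene, *Tet1* had 696, 682 and 716 normalized counts in *Ctrl* against 787, 895 and 753 in *Tet iTKO*, *Tet2* had 249, 170 and 230 against 233, 268 and 211, and *Tet3* had 28, 13 and 13 against 10, 3 and 3. These whole-gene values include exons outside the floxed ones and therefore check the deletion of *Tet1* and *Tet2* in no line.

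The keratin pair, by which the set was chosen, had the highest log2 fold changes of the 8 genes that were fitted. *Cldn3*, at 2.23 (standard error 0.65), lay too close to them to be told apart. *Krt8* (ENSMUSG00000049382.9, chr15:101996698-102004482 on GRCm38, minus strand) had 17, 9 and 19 normalized counts in *Ctrl* against 83, 105 and 90 in *Tet iTKO*. Every *Tet iTKO* line lay far above the highest *Ctrl* line. The means were 15.0 ± 5.29 (SD, n = 3) and 92.7 ± 11.2 (SD, n = 3), a ratio of 6.18 and a log2 fold change of 2.60 (standard error 0.32). Leaving out each line in turn gave 2.30 to 2.80.

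*Krt18* (ENSMUSG00000023043.6, chr15:102028180-102032027, plus strand), the type I partner, had 15, 20 and 12 normalized counts in *Ctrl* against 91, 64 and 92 in *Tet iTKO*. Its groups were as far apart, with *Tet iTKO* line 2 the lowest of the 3. The means were 15.7 ± 4.04 (SD, n = 3) and 82.3 ± 15.9 (SD, n = 3), a ratio of 5.26 and a log2 fold change of 2.33 (standard error 0.32). Without each line in turn it was 2.17 to 2.51.

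The sum of the pair varied less than either gene. It was 32, 29 and 31 normalized counts in *Ctrl* against 174, 169 and 182 in *Tet iTKO*. In each of the 6 lines the partners lay on opposite sides of their group means. They were farthest apart in *Ctrl* line 2, with *Krt8* low and *Krt18* high, and in *Tet iTKO* line 2, with *Krt8* high and *Krt18* low. Some distances were very small, such as 15 against a mean of 15.7 for *Krt18* in *Ctrl* line 1. Whether the partners offset each other was not tested. Scaled by transcript length, the log2 ratio of *Krt8* to *Krt18* was -0.27, -1.60 and 0.22 in *Ctrl* and -0.58, 0.27 and -0.48 in *Tet iTKO*. The ranges overlapped, so the balance of the partners was not seen to shift.

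The other simple keratins stayed close to the limit of detection. *Krt7* (ENSMUSG00000023039.9, chr15:101411043-101430313, plus strand), a type II keratin of ducts and trophoblast, had 7, 13 and 2 normalized counts in *Ctrl* against 5, 2 and 0 in *Tet iTKO*. *Krt19* (ENSMUSG00000020911.8, chr11:100140810-100148665, minus strand), a type I keratin, had 2, 5 and 2 against 1, 9 and 16. The groups overlapped for both genes, and both had a mean under 10, so they were left out of the fit. *Krt19* in *Tet iTKO* was spread most widely, with line 3 alone above 9.

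How far reads can be assigned to *Krt8* is limited by a pseudogene copy and by an overlapping gene. Of the 1909 stretches of 50 bases in its transcript, 567 (29.7%) also occur in another annotated gene, 514 of them in the pseudogene *Krt8-ps* and 53 in *Gm36026*, a noncoding gene that overlaps *Krt8* on the opposite strand. Counting was run with the strand-specific setting of HTSeq, but Smart-Seq2 libraries do not mark the strand, so reads of *Krt8* and of *Gm36026* where they overlap cannot be told apart. Neither copy was analysed here. In *Krt18* the share was 0.72%, in *Krt7* 0.222%, and in the other 7 genes it was 0. *Krt7* and *Cldn3* each overlap an antisense gene, *Gm671* and *Wbscr25*, which were not analysed here either.

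*Krt8* and *Krt18* lie 23697 bases apart on chromosome 15 and are read away from each other. Genes within 100 kb were looked up to describe this stretch. *Eif4b*, a translation initiation factor, had 2083, 2112 and 2256 normalized counts in *Ctrl* against 2431, 2582 and 2473 in *Tet iTKO*, which is 0.21 on the log2 scale (standard error 0.05, limma adjusted p = 0.0014). *Tns2*, a focal adhesion protein, had 4, 6 and 4 against 27, 14 and 30, which is 2.07 on that scale (standard error 0.57, limma adjusted p = 0.0041). *Spryd3* had 100, 79 and 72 against 65, 70 and 82, which overlapped (log2 fold change -0.20, limma adjusted p = 0.5). The neighbouring keratins *Krt79*, with 0, 2 and 0 against 4, 9 and 5, and *Krt4*, with at most 1 in any line, were too low for the main test. Where every gene with a mean above 0 was tested, *Krt79* passed as higher (limma adjusted p = 0.025) and *Krt4* did not (limma adjusted p = 0.31). *Eif4b* and *Tns2* thus passed the test as higher, *Tns2* by a fold close to that of the keratin pair and *Eif4b* by a much smaller one.

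The adherens junction gene *Cdh1* was the most abundant of the 10 by normalized count and had the smallest ratio among those that were higher. *Cdh1* (ENSMUSG00000000303.6, chr8:106603351-106670246, plus strand) had 1017, 1075 and 1069 normalized counts in *Ctrl* against 1138, 1143 and 1211 in *Tet iTKO*. The groups did not overlap, but the gap between them was small beside the level. The means were 1053.7 ± 31.9 (SD, n = 3) and 1164 ± 40.8 (SD, n = 3), a ratio of 1.10 and a log2 fold change of 0.14 (standard error 0.06). Corrected for length and GC content of the transcripts it was 0.03, and with quantile normalization 0.23, so its size rests on the scaling.

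*Epcam* (ENSMUSG00000045394.8, chr17:87635979-87651129, plus strand) had 759, 706 and 825 normalized counts in *Ctrl* against 1023, 1100 and 1006 in *Tet iTKO*. All 3 *Tet iTKO* lines were above all 3 *Ctrl* lines. The means were 763.3 ± 59.6 (SD, n = 3) and 1043 ± 50.1 (SD, n = 3), a ratio of 1.37 and a log2 fold change of 0.45 (standard error 0.07). The log2 ratio of *Epcam* to *Cdh1*, scaled by length, went from 0.65 ± 0.12 (SD, n = 3) in *Ctrl* to 0.96 ± 0.11 (SD, n = 3) in *Tet iTKO*. Where a CD326 gate was used, it was the same for both groups.

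The 4 claudins did not differ alike between the groups. *Cldn6* (ENSMUSG00000023906.2, chr17:23679249-23682446, plus strand), a claudin of embryonic epithelia and pluripotent cells, had 131, 135 and 118 normalized counts in *Ctrl* against 330, 304 and 388 in *Tet iTKO*. *Cldn7* (ENSMUSG00000018569.6, chr11:69964779-69967885, plus strand), which binds EPCAM, had 145, 171 and 122 against 347, 287 and 336. In both genes the groups were well apart. The means of *Cldn6* were 128 ± 8.89 and 340.7 ± 43.0 (SD, n = 3 each), a ratio of 2.66 and a log2 fold change of 1.40 (standard error 0.13). Those of *Cldn7* were 146 ± 24.5 and 323.3 ± 31.9 (SD, n = 3 each), a ratio of 2.21 and a log2 fold change of 1.15 (standard error 0.13).

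*Cldn3* (ENSMUSG00000070473.2, chr5:134986214-134987472, plus strand) was the rarest of the claudins and had 5, 5 and 1 normalized counts in *Ctrl* against 15, 21 and 20 in *Tet iTKO*. The groups did not overlap, and the means were 3.7 ± 2.31 and 18.7 ± 3.21 (SD, n = 3 each). Its log2 fold change was 2.23 (standard error 0.65) and ranged from 1.70 to 2.49 without each line in turn, the widest range of the 8 genes that were fitted. *Cldn4* (ENSMUSG00000047501.2, chr5:134945119-134946934, minus strand), 39279 bases from *Cldn3*, had 222, 233 and 174 against 207, 162 and 182. Its groups overlapped, with means of 209.7 ± 31.4 and 183.7 ± 22.5 (SD, n = 3 each) and a log2 fold change of -0.19 (standard error 0.14). Neighbouring claudins on chromosome 5 thus differed in their change, with no overlap of groups in *Cldn3* and overlap in *Cldn4*.

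The make-up of the claudin pool shifted with these differences. The 4 claudins summed to 503, 544 and 415 normalized counts in *Ctrl* and to 899, 774 and 926 in *Tet iTKO*. Scaled by transcript length, *Cldn4* made up 38.7, 37.3 and 36.7% of the pool in *Ctrl* and 19.3, 17.6 and 16.5% in *Tet iTKO*. *Cldn6* took 25.6, 24.2 and 27.9% against 34.5, 36.9 and 39.4%, and *Cldn7* took 34.4, 37.3 and 35.0% against 44.1, 42.3 and 41.5%. *Cldn3* was at most 1.26% in *Ctrl* and at most 3.28% in *Tet iTKO*. In *Ctrl*, *Cldn7* and *Cldn4* were level, with a log2 ratio of -0.08 ± 0.08 (SD, n = 3), while in *Tet iTKO* mESC *Cldn7* led by 1.26 ± 0.07 (SD, n = 3). The log2 ratio of *Cldn6* to *Cldn4* went from -0.54 ± 0.12 to 1.05 ± 0.21 (SD, n = 3 each).

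**Figure D2:**
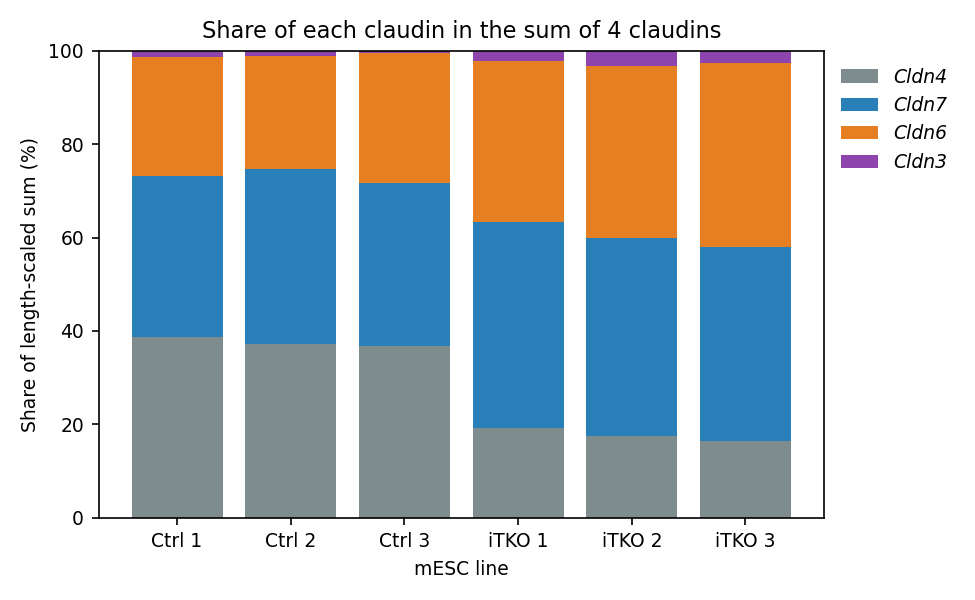
Share of *Cldn3*, *Cldn4*, *Cldn6* and *Cldn7* in the sum of the 4, in percent (vertical axis), after dividing normalized counts by transcript length, with 1 bar per mESC line. The *Cldn4* segment is 36.7 to 38.7% in the 3 *Ctrl* lines and 16.5 to 19.3% in the 3 *Tet iTKO* lines.

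As a description of the set and not as a test of it, of the 8 genes with a mean of at least 10, *Krt8*, *Krt18*, *Epcam*, *Cldn3*, *Cldn6* and *Cldn7* were past the threshold as higher in *Tet iTKO*, 0 as lower, and *Cdh1* and *Cldn4* were not past it. The background was 16.4% of all genes tested for higher calls. Past the threshold with a log2 fold change of 1 or more were 5 of the 8, against 4.95% of all genes tested. Past it with one of -1 or less were 0 of the 8, against 1.3%. The groups did not overlap in 7 of the 8, always with *Tet iTKO* higher, against 21.2% of all genes tested in that direction, 22.9% in the other and 44.1% in either. The median log2 fold change was 1.27 over the 8 genes and 0.01 over all genes tested. The set was put together from this contrast, so nothing is read from these counts. *Cldn3*, with means of 3.7 in *Ctrl* and 18.7 in *Tet iTKO*, also entered the 8 only through its *Tet iTKO* lines. The direction of each of the 8 was kept in every alternative that fitted it. *Krt18* and *Cldn3* were not fitted with a filter on a mean of at least 50.

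**Figure D3:**
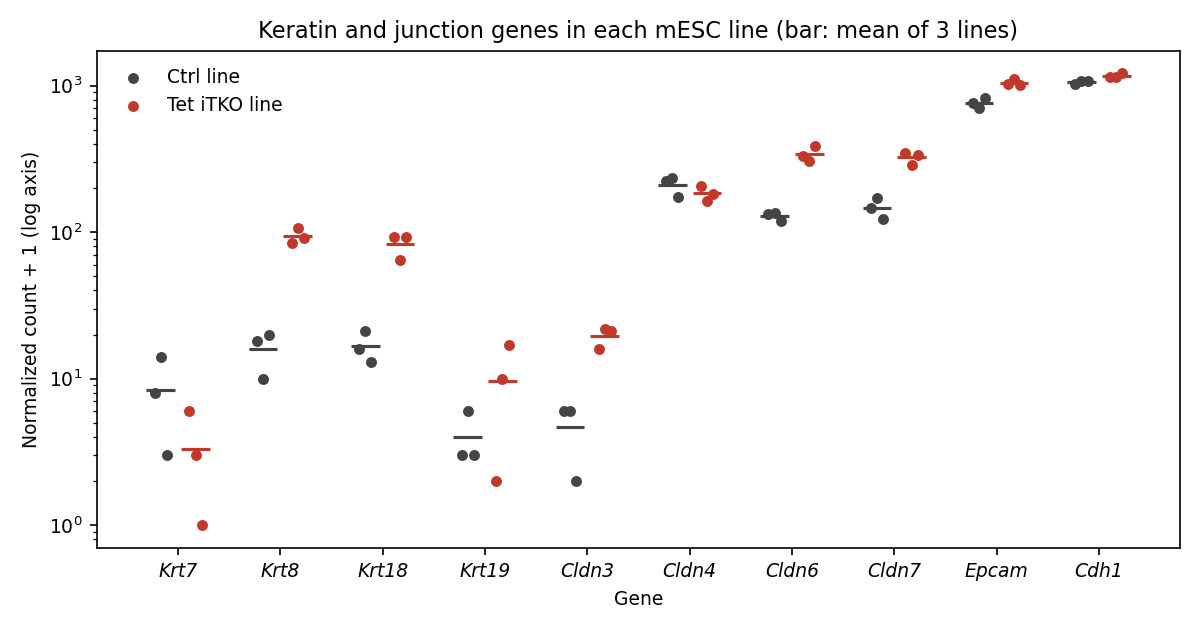
Normalized count + 1 on a log axis (vertical) for each of the 10 genes (horizontal), with 1 point per mESC line, grey for *Ctrl* and red for *Tet iTKO*, and a bar at the mean of the 3 lines. The points of the groups are separate for *Krt8*, *Krt18*, *Cldn3*, *Cldn6*, *Cldn7*, *Epcam* and, narrowly, *Cdh1*, and overlap for *Krt7*, *Krt19* and *Cldn4*.

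Per length of transcript, the order of the mean levels was the same in both groups except among *Cldn4*, *Cldn6* and *Cldn7*. In *Ctrl*, in normalized counts per kb, *Epcam* stood first at 346 to 404, then *Cdh1* at 230 to 243, then *Cldn4* at 95.8 to 128 and *Cldn7* at 91.4 to 128, whose ranges overlapped, and *Cldn6* at 72.7 to 83.2. *Krt18* at 8.35 to 13.9 and *Krt8* at 4.60 to 9.70 followed and overlapped. *Cldn3*, *Krt19* and *Krt7* came last and overlapped, all below 4 per kb. In *Tet iTKO*, *Epcam* was again first at 493 to 539. *Cdh1* at 257 to 273 came within the range of *Cldn7* at 215 to 260, which in turn overlapped *Cldn6* at 187 to 239. *Cldn4* at 89.2 to 114 stood below them, and *Krt18* at 44.5 to 64.0 and *Krt8* at 42.4 to 53.6 overlapped again. *Cldn3* at 11.9 to 16.7 was there clear of *Krt19* at 0.635 to 10.2 and of *Krt7*, which was at most 1.22. The keratin pair was thus still below every abundant junction gene per kb in *Tet iTKO* mESC.

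Genes with a pattern most like that of the keratin pair were found over the 6 lines, by the root-mean-square difference of log2 values taken relative to the *Ctrl* mean, among 9470 genes. Among the 5 nearest to *Krt8* were *Pitpnm1* (0.30), *Tbkbp1* (0.38) and *Prkd2* (0.38). *Tbkbp1*, for example, had 25, 22 and 41 normalized counts in *Ctrl* against 168, 143 and 112 in *Tet iTKO*. The nearest to *Krt18* were *S100a16* (0.19), *Lpar2* (0.21), *Naaa* (0.27), *Guca1b* (0.33) and *Marveld2* (0.34). *S100a16* had 15, 17 and 15 against 87, 67 and 78. The partners were not each other's nearest gene, with *Krt18* at rank 21 for *Krt8* and *Krt8* at rank 50 for *Krt18*, both at 0.60.

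Most other genes of both families were nearly silent. Of 48 other keratins, 47 had an identifier, 29 were listed at 0 in every line, and 41 of the 47 never exceeded 3 normalized counts. Only *Krt42*, *Krt17* and *Krt10* had a mean of at least 10. *Krt17*, a stress-linked type I keratin that was named after its values were seen, had 28, 31 and 12 against 39, 48 and 44 (log2 fold change 0.96, standard error 0.36, limma adjusted p = 0.033). This call was lost without *Ctrl* line 3 and without any 1 of the *Tet iTKO* lines, where 0 of the other keratins passed. *Krt42*, with 174, 196 and 184 against 214, 229 and 236, did not pass the test (log2 fold change 0.29, limma adjusted p = 0.067), and neither did *Krt10*. Per kb, *Krt42* stood at 113 to 127 in *Ctrl* and at 139 to 153 in *Tet iTKO*, above *Krt8* and *Krt18* in both groups. Among 21 other claudins and claudin-domain genes, 16 never exceeded 3 and 3 were tested. *Cldn9*, also named after its values were seen, rose from 3, 1 and 5 to 38, 23 and 28 (log2 fold change 3.05, standard error 0.61, limma adjusted p = 0.00013). It lies tail to tail with *Cldn6*, 137 bases away, and without strand information reads that run past the end of 1 of them cannot be assigned with certainty. *Cldn12* and *Cldnd1* did not pass.

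Other proteins of the tight junction had 11 of 19 tested genes higher and 1 lower, against 16.4% and 18.4% of all genes tested, and a median log2 fold change of 0.43. Once length and GC content were corrected for, 7 were higher and 1 lower, against 12.6% and 13.5% of all genes. Occludin, *Ocln*, a membrane protein of the same strands as claudins, went from 14, 12 and 19 to 64, 56 and 37 normalized counts (log2 fold change 1.72, standard error 0.36, limma adjusted p = 0.00024). Cingulin, *Cgn*, which ties the strands to the cytoskeleton, went from 44, 58 and 24 to 118, 148 and 129 (1.71, standard error 0.25, limma adjusted p = 8e-07). The scaffold *Magi1* rose by 0.85 on the log2 scale (limma adjusted p = 0.0007). *Marveld2*, the tricellulin gene of three-cell contacts and the fifth nearest pattern to *Krt18*, had 12, 15 and 7 against 42, 53 and 49 (2.04, standard error 0.39). It is named for its likeness to *Krt18*, so its change is given as a description. *Ildr1*, also of three-cell contacts, was the 1 that fell, from 157, 139 and 198 to 119, 115 and 128 (log2 fold change -0.43, limma adjusted p = 0.031). Without *Ctrl* line 3 its log2 fold change was -0.29 and did not pass, and it did not pass without *Tet iTKO* line 1 or 2 either.

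In the adherens junction around *Cdh1*, 3 of 16 tested genes were higher and 0 lower, close to the 16.4% of all genes tested, with a median log2 fold change of 0.16. At an unadjusted p under 0.05, 7 were higher and 0 lower. *Lima1*, an actin cross-linker, rose from 409, 419 and 408 to 711, 786 and 761 (0.87, standard error 0.08, limma adjusted p = 9.5e-11). *Ctnnb1*, encoding beta-catenin, rose by 0.26 (limma adjusted p = 0.0024), and the P-cadherin gene *Cdh3* by 0.46 (limma adjusted p = 0.028). *Cdh3* lost its call once length and GC content were corrected for, at 0.32 (limma adjusted p = 0.16), where 2 genes of the list were higher and 2 lower. It also lost it without *Ctrl* line 1 or 3 or *Tet iTKO* line 1 or 2, with values of 0.33 to 0.49. With the replicate number as a block, 5 were higher.

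Desmosomes and linkers, to which keratin filaments are anchored, had 6 of 12 tested genes higher and 0 lower, against 16.4% and 18.4% of all genes tested. The median log2 fold change was 0.50. After the correction the counts were the same, but 1 gene was exchanged. *Plec* went from 0.61 to -0.14 (limma adjusted p = 0.5) and lost its call, and *Perp* gained one at 0.57 (limma adjusted p = 0.006). At an unadjusted p under 0.05, 8 were higher and 0 lower. Envoplakin, *Evpl*, which joins filaments to the cell cortex, rose from 3, 4 and 9 to 91, 77 and 54 (3.65, standard error 0.44, limma adjusted p = 2.1e-08). Plakophilin 3, *Pkp3*, rose from 51, 49 and 70 to 144, 185 and 152 (1.49, standard error 0.19, limma adjusted p = 1.2e-07). *Itgb4*, the integrin chain of hemidesmosomes, rose from 18, 22 and 20 to 56, 60 and 58 (1.49, standard error 0.31, limma adjusted p = 0.00025), or by 0.95 with the correction. Desmoplakin, *Dsp*, the main desmosomal anchor of keratins, was too low to test, at 2, 0 and 4 against 9, 4 and 4.

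Polarity complex genes, which set the apical and basal sides of an epithelial cell, were higher in 9 of 17 tested and lower in 0, against 16.4% and 18.4% of all genes tested, with a median log2 fold change of 0.33. With length and GC content corrected for, 4 were higher and 1 lower, against 12.6% and 13.5% of all genes. The counts at an unadjusted p under 0.05 were also 9 and 0. *Pard6g* rose by 1.29 (standard error 0.31, limma adjusted p = 0.001), *Llgl1* by 0.69 (standard error 0.12, limma adjusted p = 1.6e-05; 0.34 with the correction) and the apical protein gene *Crb3*, from 109, 127 and 108 to 223, 159 and 162, by 0.64 (standard error 0.16, limma adjusted p = 0.0015).

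Filament genes outside the keratin family did not share 1 direction, with 3 of 10 tested higher and 2 lower, against 16.4% and 18.4% of all genes tested, and a median of 0.08. After the correction 3 were higher and 3 lower. *Vim*, the intermediate filament of mesenchymal cells, fell from 1038, 1078 and 1057 to 463, 496 and 503 (log2 fold change -1.12, standard error 0.07, limma adjusted p = 1.7e-14), in the lines in which the keratin pair was higher. The nuclear lamin gene *Lmna* fell by 0.31 on the log2 scale (limma adjusted p = 0.023). This call was lost without *Ctrl* line 2, *Tet iTKO* line 1 or *Tet iTKO* line 2. *Des*, the muscle filament desmin, rose by 1.07 (limma adjusted p = 0.00085) and the neuronal *Ina* by 0.98 (limma adjusted p = 5.6e-07).

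**Figure D4:**
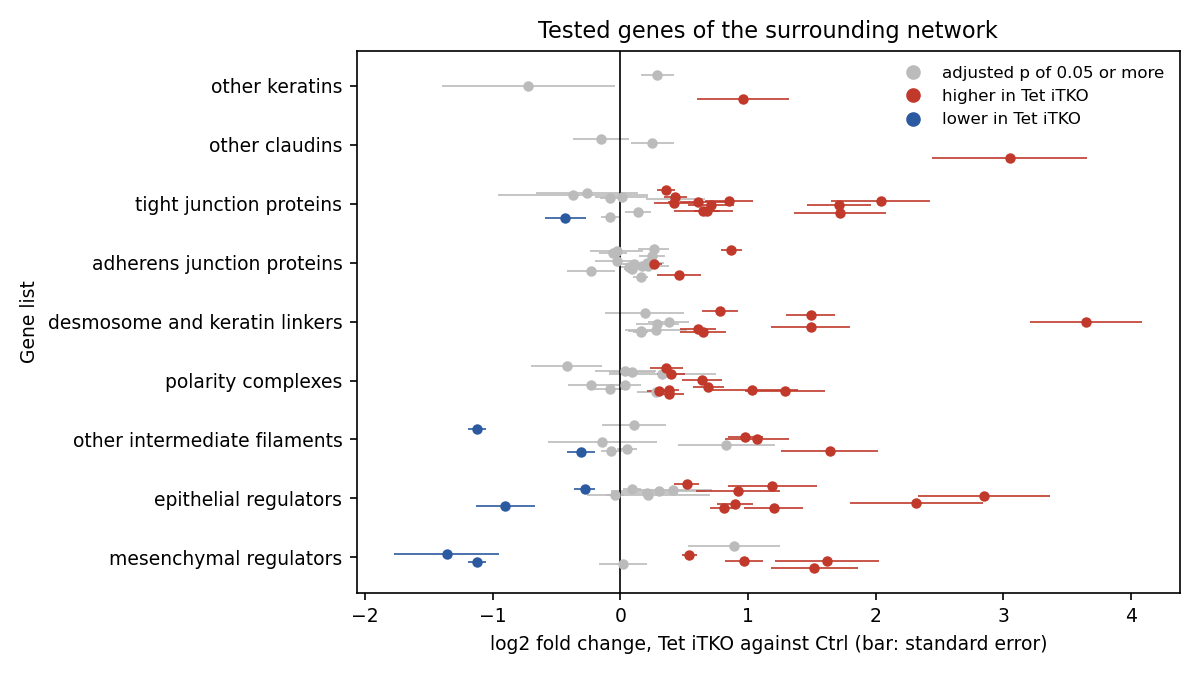
Log2 fold change of *Tet iTKO* against *Ctrl* (horizontal axis; bar, standard error) for each tested gene of the 9 function lists (vertical axis), red where higher and blue where lower at a limma adjusted p under 0.05, grey otherwise. Desmosome and keratin linkers have 6 red and 0 blue points, adherens junction proteins 3 red among 16, and *Vim* at -1.12 is the blue point farthest left of the other intermediate filaments.

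A mixed list of regulators of epithelial genes and other epithelial genes, called epithelial regulators below, had 8 of 16 tested higher and 2 lower. The shares of all genes tested were 16.4% and 18.4%. The median was 0.46, and the counts were the same after the correction. The splicing regulator *Esrp1* rose from 37, 54 and 39 to 114, 95 and 91 (1.20, standard error 0.23, limma adjusted p = 8.8e-05), the sorting adaptor *Ap1m2* by 0.90 (limma adjusted p = 2.3e-06), and the ETS factor *Elf3* from 228, 219 and 202 to 343, 421 and 380 (0.81, standard error 0.11, limma adjusted p = 2.8e-07). *Grhl3*, a Grainyhead factor, fell from 92, 102 and 126 to 75, 61 and 39 (log2 fold change -0.90, limma adjusted p = 0.002), and the protease inhibitor *Spint1* fell by 0.28 on the log2 scale (limma adjusted p = 0.0035). The Grainyhead factors did not share 1 direction. *Grhl1*, named after its values were seen, rose from 5, 6 and 4 to 26, 29 and 31 (2.32, standard error 0.52, limma adjusted p = 0.00055). *Grhl2* did not pass (0.30, limma adjusted p = 0.56). Of the mesenchymal genes, 4 of 8 tested were higher and 2 lower, against 16.4% and 18.4% of all genes tested, with the same counts after the correction and a median of 0.72. The matrix genes *Mmp2* (1.52, limma adjusted p = 0.00046), *Mmp14* (0.97, limma adjusted p = 5.2e-06) and *Fn1* (0.54, limma adjusted p = 1.1e-09; 0.16 with the correction) were higher. The repressors of the Snail and Zeb families, known to bind the E-box marked in the promoters, did not share 1 direction, and they are named here after their values were seen. *Snai3* rose from 30, 8 and 11 to 38, 44 and 54 (log2 fold change 1.62, standard error 0.41, limma adjusted p = 0.0018). *Snai1*, with 14, 21 and 34 against 29, 52 and 45, did not pass the test (0.89, limma adjusted p = 0.054). *Snai2* and *Zeb2* never exceeded 4. *Zeb1*, an E-box-binding repressor of *Cdh1* and of other epithelial genes, had 40, 34 and 37 in *Ctrl* and 18, 20 and 7 in *Tet iTKO* (log2 fold change -1.36, standard error 0.41, limma adjusted p = 0.0085). *Zeb1* and *Vim* were the 2 that fell. Without *Tet iTKO* line 3, where *Zeb1* was lowest at 7, 1 mesenchymal gene was lower instead of 2. The call that was lost was that of *Zeb1*, which thus rests on that line, and *Vim* remained.

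Markers of the cell types the culture could hold were read beside these results, and their counts of calls stand beside the same 16.4% and 18.4% of all genes. Of 12 mESC markers, led by *Dppa5a*, *Tdgf1* and *Pou5f1*, all were tested, 2 were higher and 5 lower, and their sum was 33848 to 34107 in *Ctrl* and 29361 to 30394 in *Tet iTKO*. Much of the drop in the sum was *Dppa5a*, whose log2 fold change of -0.39 turned to 0.11 once length and GC content were corrected for. With the correction 2 markers were higher and 3 lower, and *Nanog*, *Zfp42*, *Esrrb* and *Klf4* lost their calls. The 17 feeder fibroblast markers summed to 455 to 478 against 687 to 732, with 3 of 10 tested higher (*Col1a1*, *Col1a2* and *Col3a1*) and 0 lower, or 5 and 1 at an unadjusted p under 0.05. *Fbn1*, with 2, 1 and 2 against 15, 10 and 6, was below the filter. It passed as higher where every gene with a mean above 0 was tested (limma adjusted p = 0.025). *Thy1*, the gate marker, had 30, 46 and 41 against 47, 35 and 23. *Vim*, which fibroblasts make in large amounts, was lower, but it is not in this list, and which cells its RNA came from was not tested. The 17 trophectoderm markers, whose cells make KRT8 and KRT18, summed to 886 to 899 against 725 to 825, with 0 of 7 tested higher, or 1 at an unadjusted p under 0.05, and *Tfap2c* lower. The trophectoderm genes *Plac1*, *Tpbpa*, *Prl3d1* and *Dppa1* were at 0 in every line, *Elf5* had 1 normalized count in 1 line, *Cdx2* had 0, 0 and 0 against 1, 5 and 2, and *Hand1* had 0, 0 and 0 against 6, 5 and 6. *Hand1* and *Cdx2* were below the filter and passed as higher where every gene with a mean above 0 was tested (limma adjusted p = 0.002 and 0.033). Most of the sum was *Tfap2c*, at 672 to 745 against 579 to 599.

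The 18 primitive endoderm markers summed to 2030 to 2089 in *Ctrl* and 1669 to 1727 in *Tet iTKO*. The matrix genes *Col4a1*, *Col4a2* and *Lamb1* and the factor *Gata4*, at 2, 7 and 10 against 21, 12 and 27, were higher among 7 tested, and the most abundant, *Sparc*, was lower. *Gata6*, *Sox17* and *Foxa2* never exceeded 5, and *Ttr* and *Afp* were at 0. *Amn*, with 1, 3 and 1 against 19, 20 and 14, was below the filter. It passed as higher where every gene with a mean above 0 was tested (limma adjusted p = 0.0042). Primed epiblast markers summed to 4097 to 4349 against 5113 to 5179, with 5 of 8 tested higher and 1 lower, or 3 and 1 after the correction, where *Dnmt3a* and *Dnmt3b* lost their calls. *Lef1* rose from 104, 131 and 122 to 273, 273 and 295 (log2 fold change 1.23, limma adjusted p = 3.2e-09). *Otx2* had 29, 28 and 28 against 37, 54 and 64, while *Fgf5* never exceeded 5 and *Cer1* was at 0. After the correction the fibroblast markers had 4 higher and 0 lower, trophectoderm 0 and 1, and primitive endoderm 3 and 1. The part of the fibroblast, trophectoderm, endoderm and epiblast cell types in the keratin and claudin differences was not tested.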

How the data were processed

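RNA was measured in sorted *Ctrl* and *Tet iTKO* mESC, 3 lines of each, by Smart-Seq2 libraries and 50 by 50 base paired-end reads. These libraries mark neither strand nor molecule, so the counting floor of 3 normalized counts covers counting error only. The authors aligned reads with STAR, kept unique alignments, counted them per gene with HTSeq 0.7.1, set to strand-specific counting, and scaled them with DESeq2 1.26.0 in R 3.5.2. The submitters' processing notes name mm9, and the annotation version was not given in the sources used here. The deposited values are of the unit score: normalized counts that the authors rounded to whole numbers, so no count model was fitted. The GENCODE M21 annotation of GRCm38 gave symbols for 20775 of the 22380 identifiers, together with positions and lengths of the longest transcript.

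A linear model with a variance trend was fitted in limma 3.58.1 (R 4.3.3) to log2(normalized count + 1) of the 10524 genes whose mean was 10 or more, and two-sided p-values were adjusted by Benjamini-Hochberg over all of them. They measure the spread between lines from 3 embryos per group. A gene was called at an adjusted p under 0.05. The test was first tried on simulated data. The members of the set and the lists were chosen with earlier results of these data known, and no p-value is given for a member. Function lists are described by their counts of calls and medians, read against the share called among all genes. The rule for names took all members, up to 3 called genes per direction and list with a mean of at least 50 in 1 group, the 3 most abundant markers of a list, the 5 nearest patterns and neighbours within 100 kb. A few genes that this rule takes are not reported here. Other markers were named as defining genes of their cell type. Alternatives were pseudocounts of 0.5 and 4, other filters, quantile normalization, scaling by trimmed M values, no variance trend, the replicate number as a block, a loess correction for GC content and length (span 0.3), alone and with the block, and each line left out. Same-numbered lines did not deviate together (correlations of 0.000706, -0.00543 and -0.00314), so the numbers were not taken as pairs. Python 3.11.15 and pandas 2.3.3 were used for tables.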

Additional observations from a re-analysis of the deposited data

How the results depend on the processing

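The 8 tested members kept their direction in every alternative that fitted them; *Krt18* and *Cldn3* were not fitted with a mean of at least 50. Without a variance trend, 1075 genes were called higher and 1217 lower in place of 1731 and 1934. That setting also gave 0 other keratins higher, 0 tight junction genes lower, 1 adherens junction gene and 4 polarity genes higher, 0 epithelial regulators lower and 1 mesenchymal gene lower. *Ildr1*, *Cdh3*, *Ctnnb1*, *Grhl3* and *Spint1* kept their direction but lost their call there. With every gene of a mean above 0 tested, 2 other keratins and 2 other claudins were higher and 0 tight junction genes lower. These keratins were *Krt28* and *Krt79*, while *Krt17* did not pass there (limma adjusted p = 0.11). With a mean of at least 50, fewer genes enter: 0 other keratins, 0 other claudins, 5 adherens junction genes, 4 epithelial regulators and 2 mesenchymal genes were higher and 1 mesenchymal gene lower. Quantile normalization gave 7 adherens junction genes higher and 1 epithelial regulator lower.

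The correction for GC content and length gave 2 other claudins, 7 tight junction genes and 4 polarity genes higher, and 2 adherens junction genes and 1 polarity gene lower. Log2 fold changes correlated with GC content (Spearman's rho 0.258) and length (0.293) across 10457 genes, which are not independent replicates. The cause of the other changes was not tested.

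The replicate numbers did not pair the lines. The replicate block alone gave 5 adherens junction genes higher, and with the correction it gave 2 other claudins, 7 tight junction genes and 4 polarity genes higher, and 2 adherens junction genes and 1 polarity gene lower.

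Leaving out each line in turn gave 0 to 1 other keratins higher, 0 to 2 tight junction genes lower, 2 to 5 adherens junction genes higher (5 without *Ctrl* line 2), 1 to 2 other intermediate filaments lower and 1 to 2 mesenchymal genes lower. At a few normalized counts per line, differences of the size seen in *Krt7* and *Krt19* are not resolved at this depth.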

Other observations

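Below the mean of 10 that the test required, a few genes of the keratin and claudin families, picked out after their values were seen, also had groups that did not overlap. *Krt14*, a type I keratin of basal epidermis, had 1, 2 and 2 normalized counts in *Ctrl* against 10, 9 and 3 in *Tet iTKO*. *Krt28*, a hair follicle keratin, had 0, 0 and 1 against 11, 3 and 4. *Cldn19* had 1, 0 and 2 against 6, 7 and 5. The linker periplakin, *Ppl*, had 1, 1 and 1 against 4, 10 and 16. They were outside the main test. Where every gene with a mean above 0 was tested, *Krt28*, *Ppl* and *Cldn19* passed (limma adjusted p = 0.018, 0.019 and 0.033) and *Krt14* did not (limma adjusted p = 0.09). Levels this low are near the counting floor of 3.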
